A study of Mus musculus with 2 samples.

Results

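The genes described here are 39 genes of protein folding in the endoplasmic reticulum (ER) and of the unfolded protein response, out of 32285 genes in the single-cell matrices of mouse pancreatic tumours. They were chosen by symbol from their known roles, with earlier results of these data known, and every kept cell was used. Of the 39 genes, 3 are stress sensors, 3 are stress transcription factors, 9 are chaperones and cochaperones of the ER lumen, 2 are lectin chaperones, 4 are protein disulfide isomerases, 6 belong to ER-associated degradation, 9 to the translocon, the TRAP complex and the signal peptidase, and 3 are targets of ATF4 and CHOP. The symbol Ddit3 stood on 2 rows, and since the row of the second identifier held 0 UMIs in both libraries, the rows were summed.

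Tumour tissue of the pancreas was dissociated with collagenase and measured in 2 droplet libraries, 1 of EL1 mice and 1 of WTg mice, both 6 weeks of age. EL1 mice are FVB/N mice with the transgenes EL1-Luc and EL1-Tag, in which the elastase I promoter, active in acinar cells, drives luciferase and the SV40 large T antigen. WTg mice carry those same transgenes and in addition CAG-Mettl3, a Mettl3 cDNA under a ubiquitous promoter that was made in C57BL/6 eggs and then crossed to EL1. How many animals, and of which sex, went into a library was not given in the sources used here. With 1 library per group there is no spread between animals, the Mettl3 transgene and the mixed strain background cannot be told apart, and no test was run. Every interval below is a 95% interval for counting error only. Mettl3, the gene whose transgene separates the groups, was at 15.1 CPM (a scale on which 10000 CPM is 1% of all UMIs) in EL1 against 66.7 CPM for WTg.

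Secreted and membrane proteins enter the ER through the SEC61 channel, are folded by chaperones and disulfide isomerases, and are sent to degradation when folding fails. When unfolded proteins build up, the sensors IRE1 (Ern1), PERK (Eif2ak3) and ATF6 (Atf6) start the unfolded protein response. IRE1 splices the Xbp1 transcript, PERK slows translation and favours that of ATF4, and ATF6 is cut to a transcription factor. XBP1 and ATF6 induce chaperones and degradation genes, while ATF4 and CHOP (Ddit3) induce genes of amino acid supply and, under lasting stress, of cell death. Pancreatic acinar cells, which secrete the digestive enzymes, have among the largest ER contents of any cell.

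Barcodes were kept from 500 genes and 1000 UMIs upward if mitochondrial UMIs did not exceed 20%, and these numbered 1113 of 1621 in EL1 and 905 of 1488 in WTg, with medians of 26543 and 34836 UMIs. A count of 3 UMIs, the most that a count of 0 allows, amounts to 0.0790 CPM for EL1 and 0.0909 for WTg. Of all barcodes 15 occurred in both libraries, and of the kept ones 0. The cells, clustered without these genes, fell into 18 clusters, of which most were nearly all from 1 library, so that cell type and library overlap. Named from fixed markers were 2 acinar-like clusters (cluster 0, with 262 WTg and 6 EL1 cells, and cluster 7, with 108 and 2), 2 neuroendocrine-like clusters (cluster 1, with 250 EL1 and 3 WTg cells, and cluster 2, with 25 and 174), and a macrophage-like, an erythroid-like and a T or NK-like cluster. The labels call the cells epithelial, which the macrophage-like cells, 40 in EL1 and 47 in WTg, are not. The 9 macrophage markers summed to 438 CPM for EL1 against 970 for WTg, and 8 endothelial markers to 9.40 against 77.2, with 0 of either list at 0. Without the clusters named macrophage-like, T or NK-like and erythroid-like, the same members were past 1.5-fold as are given below for all kept cells. Cluster 14, with endothelial markers, and cluster 17, with B cell markers, were left unnamed and stayed in that comparison.

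Short promoter windows are shown for 8 of the members whose RefSeq promoter (GRCm38.p6, from 250 bases before to 50 bases after the gene start, for 33 of the 39 genes) held a known stress element. They were picked after the matches were seen as examples from several roles, since these elements tie the folding genes to XBP1 and ATF6 and the amino acid genes to ATF4. Capitals mark the element, with its spacer, and 15 bases stand on either side. The ER stress response element was searched as CCAAT, any 9 bases and CCACG, on either strand.
Hspa5: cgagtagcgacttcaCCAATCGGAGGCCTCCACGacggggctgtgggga
Hsp90b1: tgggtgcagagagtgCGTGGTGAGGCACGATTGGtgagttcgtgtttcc
Calr: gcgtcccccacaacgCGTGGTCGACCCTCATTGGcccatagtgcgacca
Pdia6: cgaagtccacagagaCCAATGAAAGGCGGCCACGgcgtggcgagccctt
Derl3: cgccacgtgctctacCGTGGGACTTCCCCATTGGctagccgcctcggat
Herpud1, second type of the element: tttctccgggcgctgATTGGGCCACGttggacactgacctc
Herpud1, amino acid response element: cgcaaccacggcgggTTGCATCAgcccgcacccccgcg
Asns, amino acid response element: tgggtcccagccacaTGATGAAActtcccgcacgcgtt
Chac1, amino acid response element: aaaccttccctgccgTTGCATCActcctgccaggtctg

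The Hsp90b1 window is the nearer to the gene start of 2 matches in that promoter. These windows lie at chr2:34772010-34772058 (Hspa5, plus strand), chr10:86705518-86705566 (Hsp90b1, minus strand), chr8:84847060-84847108 (Calr, minus strand), chr12:17266476-17266524 (Pdia6, plus strand), chr10:75893227-75893275 (Derl3, plus strand), chr8:94386362-94386402 and chr8:94386302-94386339 (Herpud1, plus strand), chr6:7693210-7693247 (Asns, minus strand) and chr2:119351034-119351071 (Chac1, plus strand), each written along its gene. The element began 65 bases before the gene start in Hspa5, 162 in Calr and 23 in Asns. The ER stress response element was found in the promoters of 9 members, namely Hspa5, Hsp90b1, Calr, Canx, Pdia6, Dnajc3, Creld2, Syvn1 and Derl3, and in 0.119% of all 32851 promoters. Its second type, ATTGG, any base and CCACG, was found in Herpud1 and Dnajb11 and in 0.0365% of all promoters. The XBP1 core TGACGTG was found in Hspa5 alone among the members and in 2.01% of all promoters. The ATF4 element, TGATG, any base and AA, was found in Chac1, Trib3, Asns and Herpud1 and in 3.97% of all promoters. These matches describe letters only, and the genes of the set are known for such elements. RefSeq promoters of Atf6, Hyou1, Manf, Derl1, Sec61a1 and Ssr2 were not used here.

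Taken over all kept cells, the set as a whole held nearly the same share of RNA in the 2 libraries, while genes of its ATF4 arm were higher in WTg and Xbp1, Dnajb9 and Sel1l were lower. The 39 genes together made up 1.13% of UMIs in EL1 and 1.17% in WTg, a log2 ratio of 0.048 (0.042 to 0.054). All 39 passed the minimum of 50 UMIs over both libraries. Their median log2 ratio of WTg over EL1 was 0.050, beside −0.15 over all 13467 genes past that minimum, with 24 members higher and 15 lower. Past 1.5-fold, 5 of 39 were higher in WTg (12.8%, beside 11.7% of all genes) and 2 of 39 lower (5.13%, beside 14.8%). With TMM scaling, which shifted the ratios of all genes up by the same amount and moved their median from −0.15 to −0.04, 5 were higher and 1 lower. So the number of members past 1.5-fold higher was near the background, and what follows describes which members these were.

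**Figure D1:**
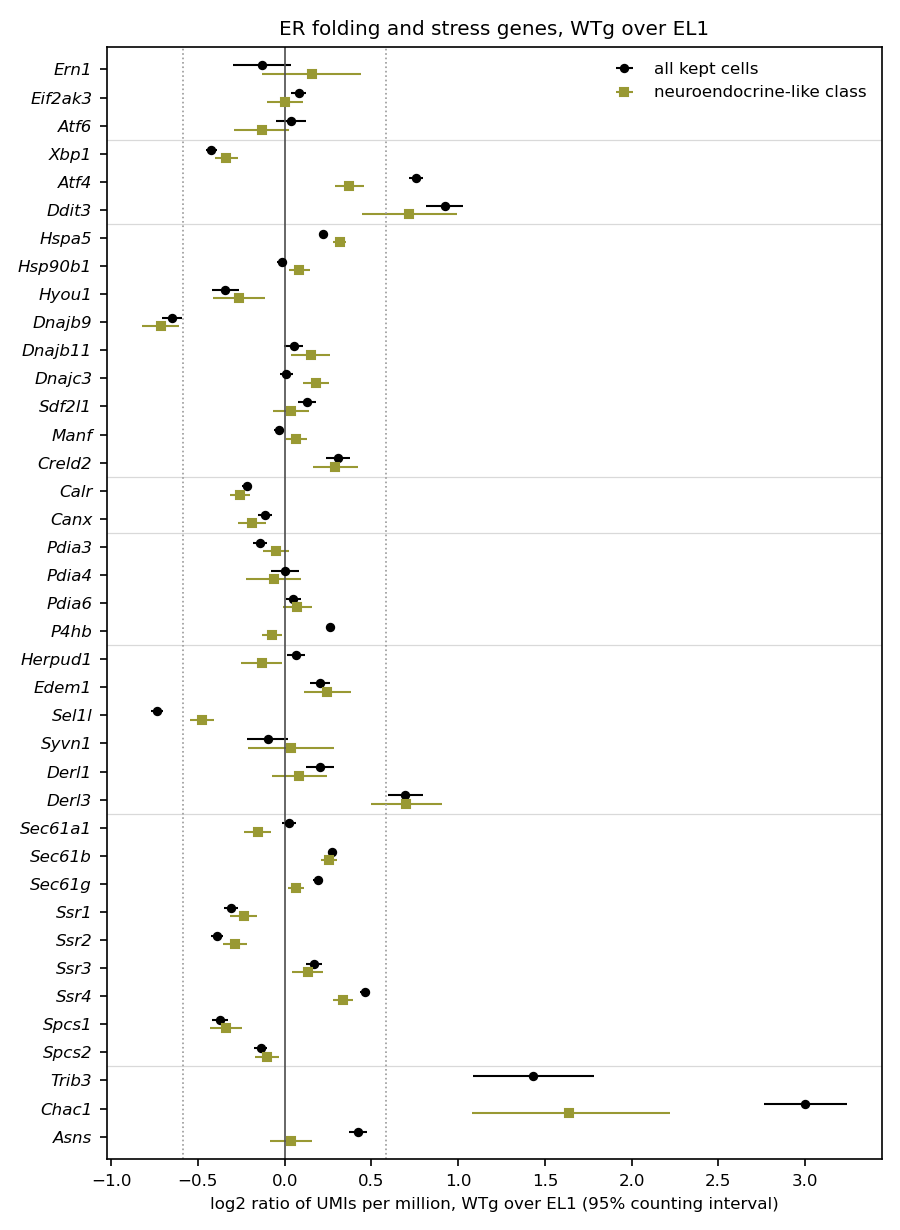
Log2 ratio of CPM, WTg over EL1 (horizontal axis), for each of the 39 genes in order of role (vertical axis, groups separated by grey lines), over all kept cells (circles) and in the neuroendocrine-like class (squares), with bars for the 95% counting interval and dotted lines at 1.5-fold. Chac1 lies farthest to the right over all kept cells, at 2.998, while Sel1l at −0.74 and Dnajb9 at −0.65 lie farthest to the left.

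None of the 3 sensors was past 1.5-fold between the libraries. Ern1, which encodes the kinase and RNase IRE1, had 17.4 CPM in EL1 against 15.9 CPM in WTg (log2 ratio −0.13, −0.30 to 0.04). Eif2ak3, which encodes the kinase PERK, stood at 236 CPM and 249 CPM, a log2 ratio of 0.080 (0.036 to 0.12). Atf6 stood at 61.2 CPM and 62.7 CPM, a log2 ratio of 0.035 (−0.051 to 0.12). The intervals of Ern1 and Atf6 include 0, and a difference in them could not be detected with these counts.

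The 3 transcription factors split. Xbp1 had 511 CPM in EL1 against 381 CPM in WTg (log2 ratio −0.42, −0.46 to −0.39). Atf4 stood at 228 CPM and 385 CPM, a log2 ratio of 0.76 (0.72 to 0.80). Ddit3, which encodes CHOP, stood at 30.1 CPM and 57.0 CPM, a log2 ratio of 0.92 (0.81 to 1.03). The 10 cells richest in Ddit3 held 211 of its 1143 UMIs in EL1 and 428 of 1882 in WTg. Thus Atf4 and Ddit3 were higher in WTg and Xbp1 lower, with the limit that 3′ counts do not separate spliced from unspliced Xbp1 and that ATF4 is set largely by translation, which was not measured.

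All 3 genes listed as targets of ATF4 and CHOP were higher in WTg. Chac1, an enzyme that breaks down glutathione, was counted 168 times in EL1 and 1167 times in WTg, or at 4.43 and 35.4 CPM, which is 7.99-fold higher (log2 2.998, 2.76 to 3.24). In WTg 656 of those UMIs came from the 262 cells of acinar-like cluster 0 and 175 from the 10 cells richest in Chac1. Trib3, a pseudokinase induced by CHOP, was sparse, with 99 and 232 UMIs (2.61 and 7.03 CPM, log2 1.43, 1.08 to 1.78). Asns, the asparagine synthetase, stood at 140 CPM and 188 CPM, a log2 ratio of 0.42 (0.37 to 0.47). Only Chac1 and Trib3 of these were past 1.5-fold.

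The 9 chaperones and cochaperones of the lumen differed little, except for Dnajb9. Hspa5, the chaperone BiP that holds the sensors inactive, was the most counted of them, with 1160 CPM in EL1 against 1352 in WTg (log2 0.22, 0.20 to 0.24). Hsp90b1, the lumenal HSP90 called GRP94, stood at 546 CPM and 539 CPM (log2 −0.018, −0.047 to 0.011). Dnajb9, the cochaperone ERdj4 and a known XBP1 target, stood at 171 CPM and 109 CPM (log2 −0.65, −0.71 to −0.59). The other 6 ran from Hyou1 at −0.34 to Creld2 at 0.31. With TMM scaling Dnajb9 was not past 1.5-fold, and Hsp90b1 and Manf moved to the higher side.

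Of the lectin chaperones, which hold glycoproteins while they fold, both were a little lower in WTg, although Canx was level with TMM scaling. Calr had 586 CPM in EL1 against 503 in WTg (log2 −0.22, −0.25 to −0.19), and Canx had 275 CPM and 254 CPM (log2 −0.11, −0.15 to −0.072). Among the disulfide isomerases, P4hb, which is also a subunit of prolyl hydroxylase, stood at 558 CPM and 670 CPM (log2 0.26, 0.24 to 0.29). Pdia3, which works with the lectins on glycoproteins, stood at 291 CPM and 264 CPM (log2 −0.14, −0.18 to −0.10). Pdia4 and Pdia6 stood at 0.0028 and 0.050 on that log2 scale. None of these 6 genes was past 1.5-fold.

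ER-associated degradation held both a member past 1.5-fold lower and a member past 1.5-fold higher. Sel1l, the scaffold of the HRD1 ubiquitin ligase, had 472 CPM in EL1 against 284 in WTg (log2 −0.74, −0.77 to −0.70). Derl3, a Derlin found mainly in secretory cells, stood at 36.0 CPM and 58.3 CPM (log2 0.69, 0.59 to 0.80). Herpud1, a stress-induced membrane protein of the same machinery, stood at 161 CPM and 168 CPM (log2 0.066, 0.013 to 0.12). The remaining 3 ran from −0.099 for Syvn1, the ligase that SEL1L holds and which TMM scaling moved to the higher side, to 0.20 for Derl1, which with Edem1 was on the higher side.

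No member of the translocon, the TRAP complex or the signal peptidase was past 1.5-fold. Sec61b, a small subunit of the channel, had 815 CPM in EL1 against 984 in WTg (log2 0.27, 0.25 to 0.29), and Sec61g had 739 CPM and 842 CPM (log2 0.19, 0.17 to 0.21). The 4 TRAP subunits did not go together, since Ssr1 (−0.31) and Ssr2 (−0.39) were lower in WTg and Ssr3 (0.17) and Ssr4 (0.46) were higher. Both signal peptidase subunits were lower, Spcs1 at −0.37 and Spcs2 at −0.14.

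The neuroendocrine-like class, with 275 EL1 and 177 WTg cells, was the named class with over 100 cells of each library, although cluster 1 supplied most of its EL1 cells and cluster 2 most of its WTg cells. Here too Dnajb9, Xbp1 and Sel1l were lower and Ddit3, Atf4 and Chac1 higher in WTg, while the value of Asns depended on the setting and Trib3 had few UMIs. Of 38 members past the minimum, 3 were past 1.5-fold higher (7.89%, beside 7.03% of 10647 genes) and 1 lower (2.63%, beside 14.3%). Their median log2 ratio was 0.036, beside −0.12 over all genes, and the summed log2 ratio was 0.019 (0.0060 to 0.031). Dnajb9 had 255 CPM in EL1 against 155 in WTg (log2 −0.72, −0.82 to −0.61), the member past 1.5-fold lower. Ddit3 (log2 0.72), Derl3 (0.70) and Chac1 (1.64, from 38 and 95 UMIs) were past 1.5-fold higher. Atf4 stood at 0.37, Xbp1 at −0.34, Sel1l at −0.48 and Asns at 0.036 (−0.087 to 0.16). Trib3 had only 15 and 11 UMIs. Under a stricter cell filter, with 207 and 94 cells in the class, Dnajb9 stayed at −0.73, whereas Ddit3 was at 0.14, Derl3 at 0.41 and Sel1l at −0.099, Ern1 was past 1.5-fold higher, and Chac1 had too few UMIs for the minimum. With the members and pathway genes kept in the clustering, Derl3 in this class was at −0.022, Chac1 alone was past 1.5-fold higher and Ssr2 joined Dnajb9 past 1.5-fold lower. Chac1 was then at 0.70, from 36 UMIs in EL1 and 33 in WTg, with an interval that included 0 (−0.030 to 1.42). Asns was at −0.33 (−0.51 to −0.15) under the stricter filter and at −0.41 (−0.57 to −0.26) with those genes in the clustering. With each cell weighted equally Chac1 was again the single member past 1.5-fold higher. The class largely sets cluster 1 of EL1 against cluster 2 of WTg. Inside cluster 2 alone, Atf4 (−0.16), Ddit3 (−0.66) and Chac1 (−0.0014) were not higher in WTg, with intervals that included 0.

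Inside the 5 clusters that held at least 20 cells of each library, Xbp1 and Sel1l were the members lower in WTg in every cluster, and Ssr3 was the member higher in every cluster, among the 23 members past the minimum in all 5. These clusters were neuroendocrine-like cluster 2 (25 EL1 and 174 WTg cells), macrophage-like cluster 10 (40 and 47), cluster 13, led by the immediate early genes Fos and Atf3 (38 and 30), and the shallow clusters 4 (61 and 85) and 11 (28 and 59), whose cells had medians of 1832 to 3935 UMIs. Sel1l ranged from −0.82 in cluster 13 to −0.46 in cluster 4 on the log2 scale, with intervals that lay wholly below 0 in clusters 2, 4 and 13. Xbp1 ranged from −0.79 in cluster 2 to −0.11 in cluster 11, with intervals wholly below 0 in clusters 2 and 13. Dnajb9 passed the minimum in 3 of the clusters and was lower in each, from −0.62 to −0.31. Ssr3 ranged from 0.16 to 0.49, and its interval lay above 0 in cluster 13 (0.11 to 0.61) and included 0 in the other 4. The median over all genes was itself below 0 in clusters 2 (−0.25), 10 (−0.028), 11 (−0.42) and 13 (−0.12), and above 0 in cluster 4 (0.11). Thus Xbp1 in cluster 11 lay above the median gene there. The share of all genes with 1 direction in all 5 clusters was not taken.

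The ATF4 arm did not go the same way in each of these clusters. In cluster 13 Atf4 had 266 CPM in EL1 against 531 in WTg (log2 0.997, 0.78 to 1.22), Ddit3 had 102 and 208 CPM (log2 1.02) and Chac1 had 13.1 and 111 CPM (log2 3.09, from 13 and 108 UMIs). In cluster 2 Atf4 was at −0.16 (−0.35 to 0.026), Ddit3 at −0.66 (−1.26 to 0.0022) and Chac1 at −0.0014 (−1.05 to 1.26), although Asns was at 0.90 (0.51 to 1.33). In the macrophage-like cluster Atf4 was at −0.78 (−1.17 to −0.39). So Atf4 was higher in WTg in 2 of these clusters and lower in 3, with intervals that included 0 in clusters 2 and 11. Without cluster 13 the same 5 members were past 1.5-fold higher over all kept cells.

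**Figure D2:**
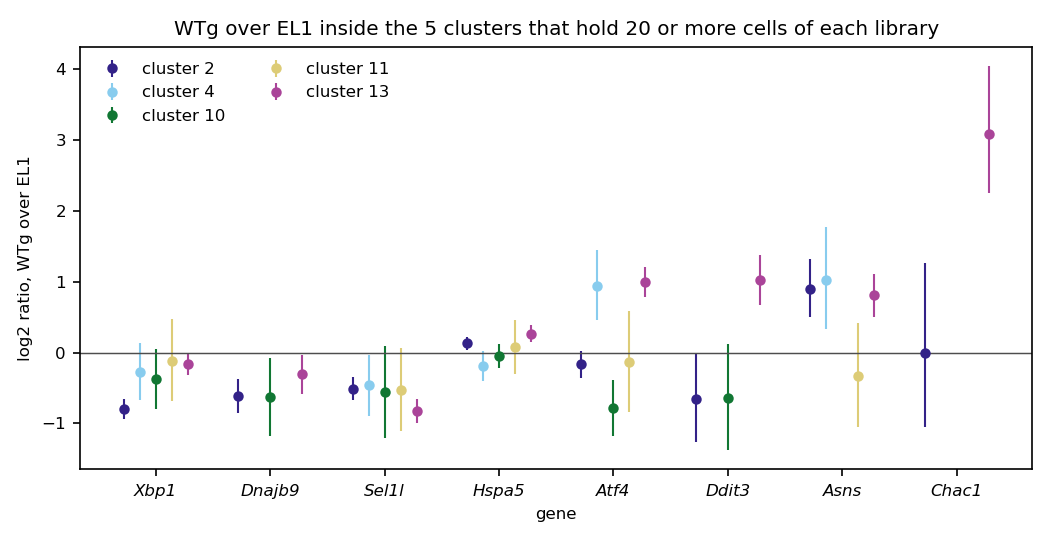
Log2 ratio of CPM, WTg over EL1 (vertical axis), of 8 genes (horizontal axis) inside each of the 5 clusters with 20 or more cells of each library (colours), with 95% counting intervals, for gene and cluster pairs with at least 50 UMIs. All points of Xbp1, Dnajb9 and Sel1l lie below 0, and those of Atf4 run from −0.78 in cluster 10 to 0.997 in cluster 13.

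Levels by cluster were taken as CPM with the enzyme UMIs left out of the denominator, since the digestive enzymes, a list of 31 genes such as trypsinogens, elastases, amylases and lipases, held 173030 CPM in EL1 and 203746 CPM in WTg. These values are called non-enzyme CPM below. The summed members ran from 6852 and 7106 non-enzyme CPM in the macrophage-like cells of EL1 and WTg to 16776 in acinar-like cluster 7 of WTg, and were 15930 in acinar-like cluster 0. The 2 neuroendocrine-like groups, cluster 1 of EL1 and cluster 2 of WTg, stood close together at 14486 and 15112. Clusters 8 and 9, led by histone and mitotic genes, stood lower, at 13067 in WTg and 11977 in EL1. Single cells of a group spread widely, and from the 10th to the 90th percentile cells of cluster 0 ran from 9814 to 22525 non-enzyme CPM. The order of the groups depends on the denominator. In CPM of all UMIs acinar-like clusters 7 and 0 of WTg stood at 11349 and 12008. On that scale they lay below neuroendocrine-like cluster 2 (13603 in EL1 and 13114 in WTg) and cluster 1 of EL1 (13085).

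Across the 15 groups of 1 cluster and library with a median of at least 10000 UMIs, 23 members were lowest in the WTg macrophage-like cells, and the highest group varied. Cluster 2 of EL1, with 25 cells, was the highest for 8 members, among them Calr (859), Canx (508) and Hyou1 (143). Of the sensors, Eif2ak3 was highest in acinar-like cluster 7, at 400 non-enzyme CPM, and at 9.12 in the macrophage-like cells of WTg, while Ern1 was highest in the neuroendocrine-like cluster 2 of WTg, at 33.2, and lowest in acinar-like cluster 0, at 12.5. Asns, with 330 non-enzyme CPM in cluster 0, and P4hb, with 1006, were also highest in acinar-like cells. In CPM of all UMIs, however, cluster 13 of WTg lay slightly above these acinar-like groups for each of these genes. It was at 253 against 249 for Asns, 767 against 758 for P4hb and 284 against 271 for Eif2ak3. In non-enzyme CPM cluster 13 of WTg was the highest group for 9 members, among them Atf4 (674), Ddit3 (264), Herpud1 (652), Chac1 (141) and Trib3 (20.9). That cluster is led by Fos, Atf3 and the heat shock genes Hspa1a and Hspa1b, and the part of these genes in its member levels was not tested.

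Cluster 12, found in EL1 only with 77 cells and led by Atp4b and kallikrein genes, stood apart in its transcription factors. Its Xbp1, at 1005 non-enzyme CPM, was the highest of these groups, and its Atf4, at 111, the lowest. Its Edem1, which sends misfolded glycoproteins to degradation, was also the highest, at 266. Sel1l stood between 512 and 1003 non-enzyme CPM in 8 of these 9 EL1 groups, and at 241 in cluster 14, which carries endothelial markers. In WTg it stood between 288 and 460 in clusters 0, 2, 7 and 8, at 566 in cluster 13 and at 48.6 in the macrophage-like cells. So the 2 libraries overlapped through WTg cluster 13 and EL1 cluster 14. Chac1 ran from 2.07 to 16.6 non-enzyme CPM over the EL1 groups, highest in cluster 13 and next in cluster 2 (12.2). In WTg it ran from 13.1 in cluster 2 to 141 in cluster 13, with 0 UMIs in the macrophage-like cells, so that WTg cluster 2 lay below EL1 cluster 13.

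**Figure D3:**
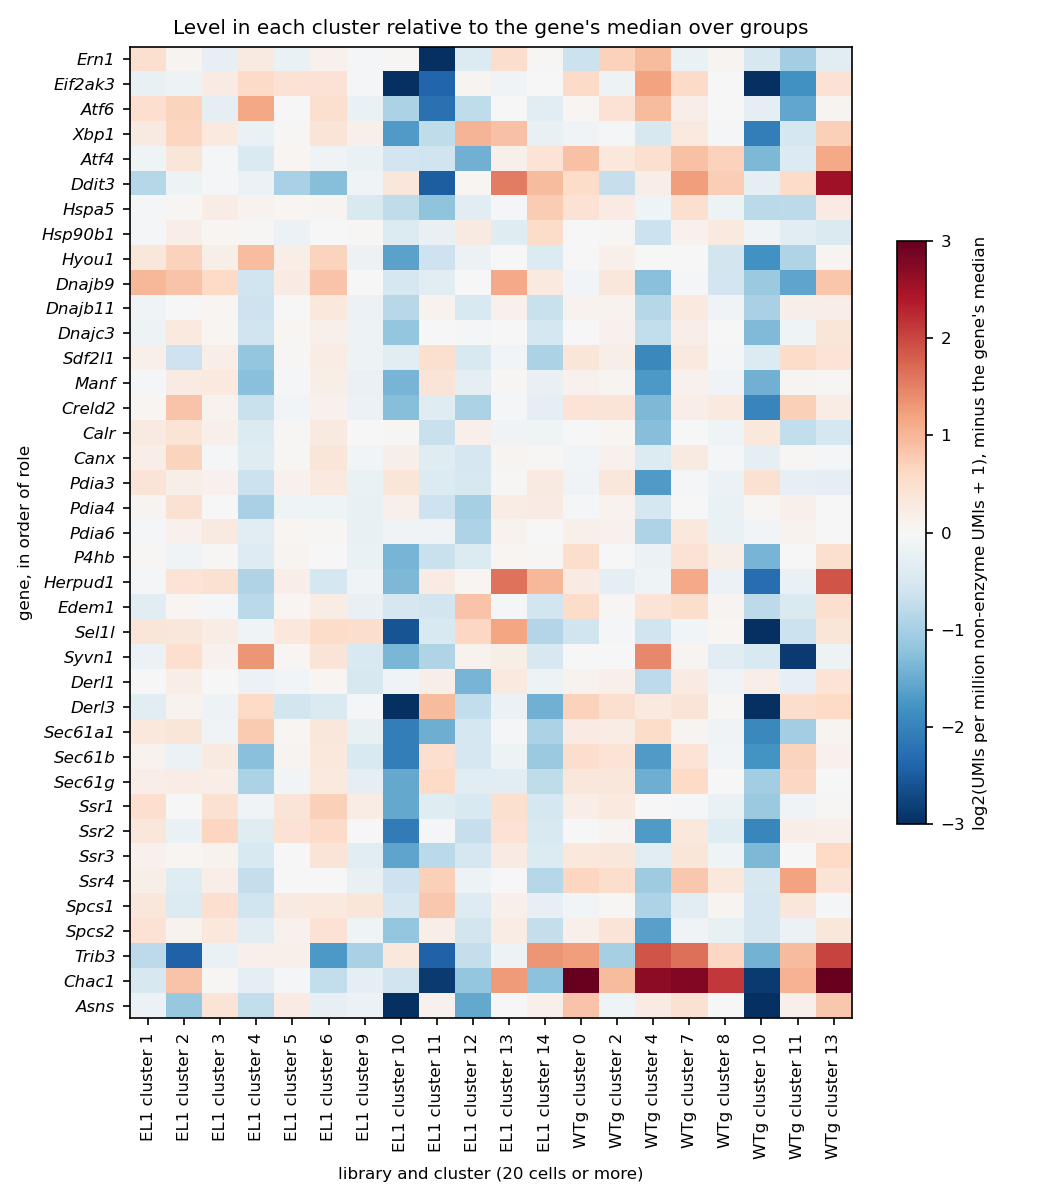
Level of each of the 39 genes (vertical axis, in order of role) in each group of 1 library and 1 cluster with 20 or more cells (horizontal axis), as log2 of non-enzyme CPM plus 1, minus the median of the gene over the 20 groups (colour). The macrophage-like groups (cluster 10) are blue for most genes, and WTg groups 0, 7 and 13 are red for Chac1 and Trib3.

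Within each library, cells with more digestive enzyme RNA also had more RNA of the folding genes relative to their non-enzyme RNA, with the larger ratio in WTg. The enzyme load, the percent of UMIs of a cell in the enzyme list, had a median of 13.2% over 1050 EL1 cells and 18.9% over 845 WTg cells outside the clusters named as immune or erythroid. Macrophage-like cells, which make no such enzymes, carried 0.392% in EL1 and 0.157% in WTg at medians of 6882 and 18381 UMIs, a share read here as background from free RNA. In 5 equal bins of cells from the lowest to the highest load in EL1, the summed members stood at 11891, 13696, 14038, 14166 and 14784 non-enzyme CPM, a log2 ratio of 0.31 (0.30 to 0.33). In WTg they stood at 10470, 14594, 15745, 15937 and 16936, a log2 ratio of 0.69 (0.68 to 0.71). Both series climb at each step, with the widest step between the lowest bin and the next.

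**Figure D4:**
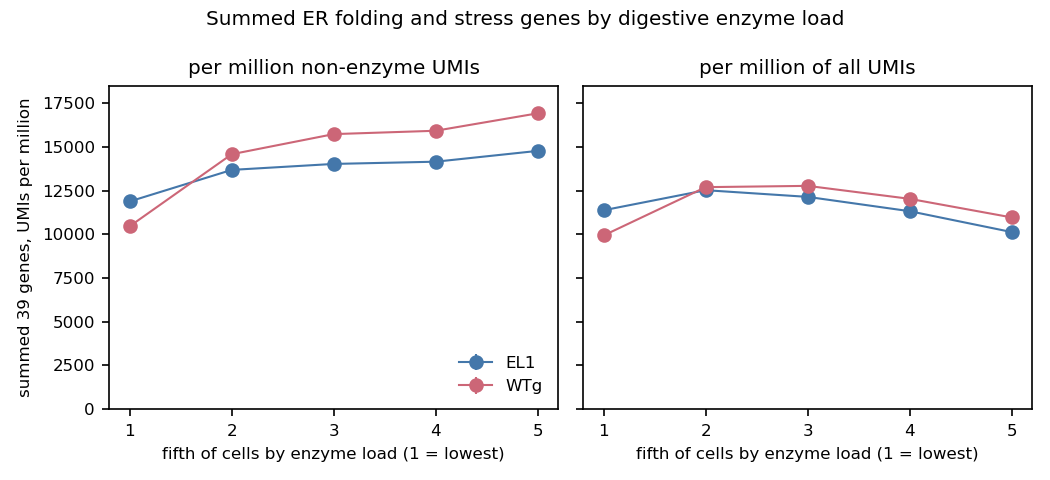
Summed UMIs of the 39 genes (vertical axis, with 95% counting intervals) in 5 equal bins of cells by enzyme load (horizontal axis, 1 is the lowest), in non-enzyme CPM (left) and in CPM of all UMIs (right), for EL1 and WTg. On the left both libraries climb, EL1 from 11891 to 14784 and WTg from 10470 to 16936, and on the right neither climbs throughout.

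The direction depends on the denominator, because enzyme UMIs take a larger part of all UMIs in loaded cells. In CPM of all UMIs, the summed members stood at 11386 in the lowest and 10137 in the highest bin of EL1 (log2 −0.17), and at 9945 and 10976 in WTg (log2 0.14). The lowest bins also held shallower cells, with medians of 18099 UMIs in EL1 and 14621 in WTg against 35049.5 and 37617 in the highest, and 34 and 55 cells of shallow cluster 4. With each cell thinned to 2000 UMIs, which left out 47 EL1 and 62 WTg cells, the log2 ratios were 0.32 and 0.71. Without clusters 4, 11, 14 and 17, they were 0.24 and 0.49.

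By member, 31 of 38 in EL1 and 35 of 39 in WTg were higher in non-enzyme CPM in the most loaded cells, with medians of 0.33 and 0.53 on the log2 scale beside −0.21 and −0.44 over all genes outside the enzyme list. Past 1.5-fold, 6 of 38 were higher in EL1 (15.8%, beside 8.03% of 10421 genes) and 0 lower (beside 25.2%). In WTg 19 of 39 were higher (48.7%, beside 6.85% of 9754 genes) and 1 lower (2.56%, beside 40.7%). In CPM of all UMIs, which moved the medians of all genes to −0.69 and −0.99, 0 were higher and 5 lower in EL1, and 9 higher and 4 lower in WTg. Of the 38 members past the minimum in both libraries, 30 were higher with load in each library, and 29 had the larger ratio in WTg. The share of all genes with either pattern was not taken, so these 2 counts describe the members only.

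In EL1 the highest ratios belonged to entry into the ER, amino acid supply and a sensor. Ssr2, a TRAP subunit, went from 352 non-enzyme CPM in the lowest bin to 676 in the highest (log2 0.94, 0.86 to 1.02), and Asns from 118 to 223 (0.91, 0.77 to 1.06). Sec61b followed at 0.81 (0.75 to 0.87) and Eif2ak3 at 0.75 (0.64 to 0.86). The lowest belonged to stress signalling, with Atf6 at −0.57 (−0.77 to −0.37), Ddit3 at −0.53 (−0.78 to −0.28), Ern1 at −0.35 (−0.71 to 0.012) and Xbp1 at −0.31 (−0.37 to −0.24).

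In WTg the highest ratios belonged to Derl3 and the 3 targets of ATF4 and CHOP, while Atf4 (0.69) stood lower and the interval of Ddit3 (0.18, −0.053 to 0.42) included 0. Chac1 went from 15.4 non-enzyme CPM to 61.8 (log2 2.00, 1.57 to 2.46), Derl3 from 25.5 to 99.7 (1.97, 1.63 to 2.32), Trib3 from 3.56 to 13.5 (1.93, 1.02 to 2.95, from 12 and 61 UMIs) and Asns from 97.8 to 304 (1.64, 1.46 to 1.81). Ern1 went the other way, from 36.4 to 13.1 non-enzyme CPM (−1.48, −1.95 to −1.02), followed by Atf6 at −0.45 (−0.69 to −0.22), Sel1l at −0.14 (−0.24 to −0.04) and Pdia3 at −0.13 (−0.24 to −0.02). So with all clusters pooled Atf6 was lower and Eif2ak3 higher (1.08 in WTg) in the loaded cells of both libraries, and Ern1 was lower in WTg, with an interval in EL1 that includes 0. Of the other genes shown above with the ER stress response element, Hspa5 was at 0.066 in EL1 and 0.67 in WTg, Calr at 0.066 and 0.53, Pdia6 at 0.70 and 0.97, and Hsp90b1 at −0.16 and 0.24.

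**Figure D5:**
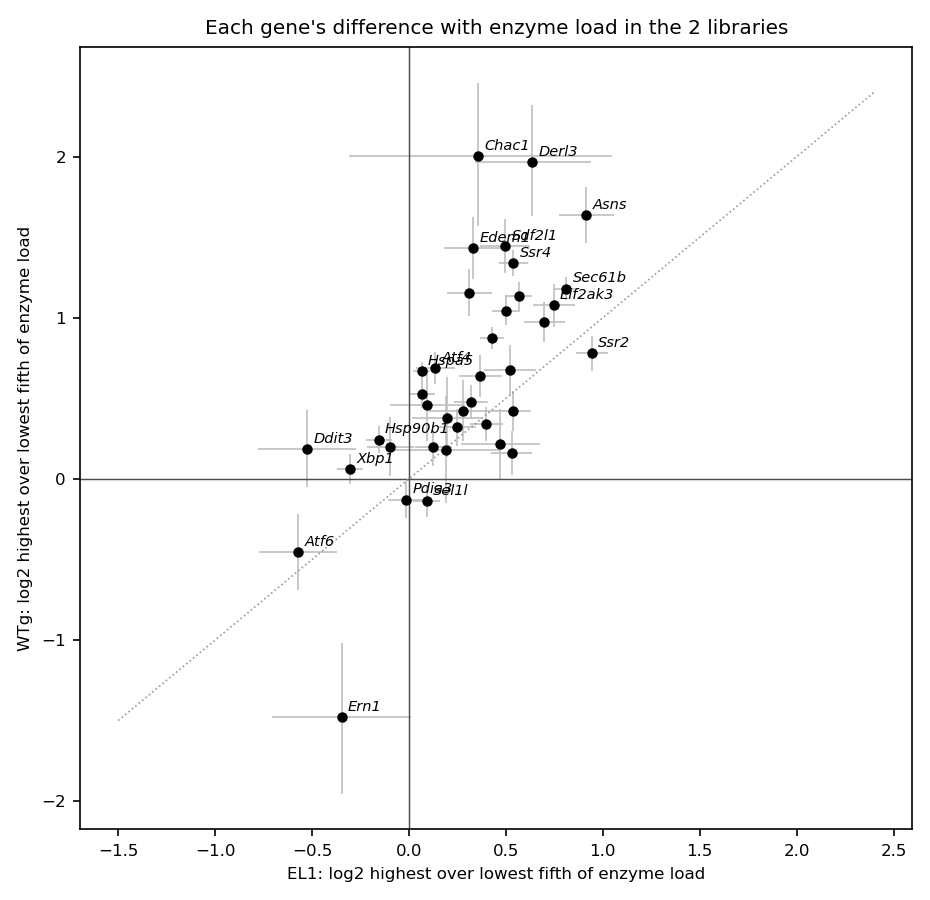
Log2 ratio of non-enzyme CPM, highest over lowest bin of enzyme load, in EL1 (horizontal axis) and in WTg (vertical axis), for the 38 genes past the minimum in both libraries, with 95% counting intervals and a dotted line where both are equal. Most points lie above the line, with Chac1 at 0.36 and 2.00, while Ern1 and Atf6 lie below 0 on both axes.

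The same relation was then taken inside clusters, where cell type varies less, by splitting the cells of each cluster and library with at least 100 cells at their median load. In non-enzyme CPM the summed members were higher in the more loaded cells in all 7 such groups. The counting interval of the log2 ratio lay above 0 in each but cluster 6 of EL1 (0.023, −0.0020 to 0.048). These ratios were not taken in CPM of all UMIs, and the direction can depend on the denominator here as in the pooled bins. In cluster 7 of WTg, for example, the load was 21.9% in the less and 38.7% in the more loaded cells. The ratio was widest in the neuroendocrine-like cells, at 0.47 (0.45 to 0.49) in cluster 2 of WTg and 0.19 (0.17 to 0.21) in cluster 1 of EL1. It was 0.16 in acinar-like cluster 0 and 0.066 in acinar-like cluster 7. In cluster 3 of EL1 the median member, at 0.064, did not exceed the median of all genes, at 0.077. In cluster 2 of WTg 35 of 38 members were higher, and the median UMI count was 34250 in the less and 42207 in the more loaded cells. Of the 39 members, 6 were higher in all 7 groups, namely Dnajb11, Manf, Pdia6, Sec61b, Ssr1 and Ssr4. Some of their ratios were near 0 with intervals that included 0, such as Manf in clusters 3 (0.0036) and 6 (0.0013) of EL1. The share of all genes higher in all 7 groups was not taken. Atf6 was higher in 1 group and Xbp1 in 2. Ern1 was higher in 4 and lower in 3, and every interval on the higher side included 0. Its interval lay below 0 in cluster 2 of WTg (−0.47, −0.90 to −0.054) and cluster 1 of EL1 (−0.43, −0.84 to −0.017). In WTg, where its pooled ratio was −1.48, Ern1 was lower in clusters 0 and 2 and higher in cluster 7. Of the members with the highest pooled ratios in WTg, Chac1, Trib3 and Asns had smaller ratios inside its clusters. A split at the median load contrasts less unlike cells than the highest and lowest bins do. The load was 19.4% against 29.3% in cluster 0 but 5.01% against 35.2% in the pooled bins of WTg, so the ratios are not on a like scale. Chac1 was at −0.040 (−0.27 to 0.19) in cluster 0, 0.46 (−0.24 to 1.17) in cluster 2 and 0.24 (−0.27 to 0.76) in cluster 7, against 2.00 pooled. Trib3 was at −0.12 in cluster 0 and −0.56 in cluster 7, both with intervals that include 0, and had 3 and 7 UMIs in cluster 2. Asns was at 0.19 (0.089 to 0.29) in cluster 0, 0.56 (0.38 to 0.76) in cluster 2 and −0.0039 (−0.22 to 0.21) in cluster 7, against 1.64 pooled. Derl3 was at 0.67 (0.47 to 0.87) in cluster 0, 1.58 (1.26 to 1.91) in cluster 2 and −0.13 (−0.54 to 0.28) in cluster 7, against 1.97 pooled. Over both libraries it was higher in 4 of the 7 groups.

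At matched load the libraries differed in opposite directions at low and at high load. Between 3 and 10% load, 313 EL1 and 136 WTg cells held 13220 and 11871 summed non-enzyme CPM, a log2 ratio of WTg over EL1 of −0.16 (−0.17 to −0.14). Between 10 and 30%, with 557 and 517 cells, it was 0.14 (0.13 to 0.15), and above 30%, with 104 and 133 cells, it was 0.16 (0.15 to 0.18). The bin from 1 to 3% gave −0.16 (−0.22 to −0.11), where WTg cells had a median of only 2538 UMIs against 15935 in EL1, and the bin under 1% held too few EL1 cells. Between 10 and 30% load Chac1 was at 5.15 non-enzyme CPM in EL1 and 48.8 in WTg (log2 3.25, 2.93 to 3.57), Atf4 at 280 and 508 (0.86), Ddit3 at 32.1 and 69.3 (1.11), and Asns at 184 and 263 (0.52). In the same cells Sel1l was at 595 and 354 (−0.75), Dnajb9 at 207 and 143 (−0.53) and Xbp1 at 601 and 489 (−0.30). Each of these 7 genes kept its side in the bins from 3 to 10% and above 30%, though for Asns between 3 and 10% the interval included 0 (0.11, −0.051 to 0.27). Between 1 and 3%, Ddit3 (−1.55), Asns (−1.47), Atf4 (−0.29) and Chac1 (8 and 2 UMIs) were on the lower side and Sel1l (0.61) on the higher side.

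The wider pathway was read from 96 other genes in 7 lists. Past 1.5-fold over all kept cells, 9 were higher and 3 lower in WTg, with a median log2 ratio of −0.077, beside 11.7% and 14.8% of all genes. Of 14 other ATF4-dependent genes of amino acid metabolism, 4 were higher and 1 lower, with a median of 0.33, the highest of the lists. Slc7a11, the cystine transporter, was the highest, with 72 UMIs in EL1 and 519 in WTg (1.90 and 15.7 CPM, log2 3.05, 2.69 to 3.43). Kdelr3, a receptor that returns chaperones to the ER, stood at 13.9 and 37.0 CPM (log2 1.41) and Sesn2, a stress-induced regulator of nutrient signalling, at 6.85 and 15.4 CPM (log2 1.17). At the other end, Atf5, a stress transcription factor related to ATF4, stood at 114 and 54.4 CPM (log2 −1.07), Crebrf, a regulator of CREB3, at 35.9 and 19.2 CPM (log2 −0.90), and Cth, the cystathionine lyase, at 31.9 and 21.2 CPM (log2 −0.59). Genes of signal recognition, glycosylation by the oligosaccharyl transferase and further degradation factors had 0 members past 1.5-fold in either direction.

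Within the neuroendocrine-like class, 4 of the 95 other genes past the minimum were higher and 8 lower past 1.5-fold, beside 7.03% and 14.3% of all genes. Atf5 (log2 −1.38) and Crebrf (−1.08) were lower there too, Kdelr3 (1.73) was higher, and Slc7a11 had only 2 and 14 UMIs. Other stress signalling genes made up 7 of the 8 lower ones. By enzyme load, 9 of the 14 other ATF4-dependent genes were past 1.5-fold higher in the most loaded cells of WTg, with a median log2 ratio of 0.92, beside 6.85% of all genes. In EL1 4 of 13 were, with a median of 0.23, beside 8.03%. The difference between libraries in these values was not tested.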

How the data were processed

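Single-cell RNA was measured with a 10x Genomics 3′ kit in 1 EL1 and 1 WTg library, with about 10000 droplets aimed for in each, beside 1621 and 1488 deposited barcodes. The deposited matrices hold raw UMI counts that the authors made with Cell Ranger (6.0.2 in the matrix headers). The submitters' processing notes also name R 4.1, Seurat 4.0.5 and the genome build GRCm38. The counts are not normalized and, being 3′ counts, were not divided by gene length. The authors' dense count tables served as an alternative choice of cells. Features and barcode lists only name rows and columns.

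Members and lists were chosen with earlier results of these data known, as were the thresholds that name clusters. Kept barcodes (at least 500 genes, 1000 UMIs, at most 20% mitochondrial UMIs) were scaled to 10000, and 2000 variable genes without the members, pathway genes, Mettl3 and cell cycle genes were reduced to 30 components, joined to 15 neighbours and clustered by Leiden at resolution 1 (scanpy 1.11.5, leidenalg 0.10.2, Python 3.11.15). A cluster was named where at least 3 markers of a type were raised and its leading genes did not go against it. Scrublet marked 4 doublets in each library, which were kept. UMIs were summed per library and group, and ratios carry exact conditional binomial 95% intervals (scipy 1.17.1), which cover counting error only. A gene was counted past 1.5-fold with at least 50 UMIs over both groups. Ratios and intervals were tested on simulated data. Cell groups needed 20 cells of a library.

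Named by rule were the sensors, factors and ATF4 targets, the 2 most counted genes and those past 1.5-fold of each other role, the 3 highest and 3 lowest pathway genes past 1.5-fold, and the 4 highest and 4 lowest members by enzyme load. Members named beyond these, such as those highest in a cluster or of 1 direction in all groups, were chosen after their values were seen. Alternatives comprised other cell filters, scalings, minimums, clusterings, load bins and thinning. Promoters came from RefSeq.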

Additional observations from a re-analysis of the deposited data

Results flagged for a closer look

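With all clusters pooled, Hsp90b1, the lumenal HSP90, went opposite ways with enzyme load in the 2 libraries in non-enzyme CPM (UMIs of digestive enzymes left out of the denominator). Its log2 ratio of the highest over the lowest bin was −0.16 (−0.22 to −0.090) in EL1 and 0.24 (0.16 to 0.33) in WTg. Inside clusters split at their median load, the libraries did not separate in this way. Hsp90b1 was higher in the more loaded cells of cluster 1 of EL1 (0.18, 0.088 to 0.26) and cluster 2 of WTg (0.53, 0.44 to 0.63). It was lower in cluster 3 of EL1 (−0.19, −0.29 to −0.082). Its intervals included 0 in clusters 5 and 6 of EL1 and clusters 0 and 7 of WTg. Sel1l went opposite ways in the other order with all clusters pooled, at 0.090 (0.019 to 0.16) in EL1 and −0.14 (−0.24 to −0.036) in WTg. Inside clusters 0, 2 and 7 of WTg, split at their median load, Sel1l was instead higher in the more loaded cells. Its log2 ratios there were 0.12 (0.014 to 0.23), 0.13 (0.015 to 0.25) and 0.57 (0.40 to 0.75). In EL1 it was higher in clusters 3, 5 and 6 and lower in cluster 1 (−0.16, −0.25 to −0.074). With 1 library each, the difference between libraries was not tested.

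Barcodes with over 20% mitochondrial UMIs, which no comparison above used, still held member UMIs. The summed members stood at 5581 CPM over 393 such barcodes of EL1 and at 4491 CPM over 440 of WTg, beside 11328 and 11711 CPM in the kept cells.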

How the results depend on the processing

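No paired analysis was possible because there is a single library in either group, so no replicate could be left out. Over all kept cells the median member stood at 0.16 under TMM and at −0.0066 with equal weight per cell, where Atf4 dropped out and 4 members were past 1.5-fold higher. TMM left 1 member past 1.5-fold lower. The summed log2 ratio was 0.16 with TMM, 0.10 without enzyme UMIs, 0.023 over all barcodes and −0.030 with equal weights. It was 0.059 without the macrophage-like, T or NK-like and erythroid-like clusters and 0.055 without clusters 4 and 11. In the neuroendocrine-like class the median was 0.14 with TMM, −0.15 with the members and pathway genes in the clustering, −0.013 at resolution 2 and −0.061 under the stricter filter of 1000 genes and 10% mitochondrial UMIs. The summed value there was 0.12 with TMM, 0.077 without enzyme UMIs, 0.00017 without doublets, −0.024 with equal weights, −0.19 with the members and pathway genes in the clustering, −0.0095 at resolution 0.5, −0.028 at resolution 2 and −0.068 under the stricter filter. The sign of the small difference of the whole set therefore depends on these choices, and the cause was not tested.

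By enzyme load, the summed members in EL1 were at 0.24 without clusters 4, 11, 14 and 17, 0.44 over all kept cells, 0.41 with equal weights, 0.25 under the stricter filter and 0.20 with 3 bins. In WTg they were at 0.49, 0.94, 0.83, 0.62 and 0.43 in the same order, and at 0.66 in the cells of the dense table. The median in WTg was 0.42 without those clusters, 0.86 over all kept cells, 0.74 with equal weights, 0.43 under the stricter filter and 0.32 with 3 bins. In CPM of all UMIs the medians were −0.16 in EL1 and −0.024 in WTg and the summed values −0.17 and 0.14, since the denominator then holds the enzymes. In EL1 that scale left 0 members past 1.5-fold higher and 5 lower, equal weights gave 14 and 2, and all kept cells 15 and 1. In WTg that scale gave 9 and 4, and 3 bins gave 11 and 1. The alternatives without clusters 4 and 11, without cluster 13 and without clusters 4, 11, 14 and 17 were chosen after seeing the data. Sparse genes, above all Trib3, are the most limited by depth.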
